A study of Mus musculus with 17 samples.

Results

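A set of 9 genes of nitric oxide and arginine metabolism was followed by RNA-Seq in thioglycollate-elicited peritoneal macrophages (PMs) given the HIV protein Tat, with and without the kinase IKKβ in myeloid cells. The 9 genes were chosen by name (Nos2, Slc7a2, Ass1, Asl, Gch1, Arg1, Arg2, Odc1 and Sat1), and each matched 1 of the 21683 rows of the expression table. The 3 groups were IKKβF/F PMs given PBS (floxed PBS, n = 6 libraries), IKKβF/F PMs given 100 nM Tat (floxed Tat, n = 6) and IKKβΔMye PMs treated likewise with 100 nM Tat (ΔMye Tat, n = 5). The donor mice were 8 weeks old, C57BL/6 and, per the study, male. All carried loxP-flanked alleles of Ikbkb, which encodes IKKβ, and the ΔMye mice also carried 1 knock-in copy of LysM-Cre, which is active in macrophages and neutrophils. The labels place the collection 3 days after an injection of 1 mL of 3% thioglycollate, while the study's methods give a later day. After 4 h of attachment, the treatment lasted 12 h. Tat was a recombinant protein made in E. coli, from which the study removed endotoxin, and the control here is PBS. No ΔMye PMs given PBS were analysed here. The interaction of genotype and Tat was therefore not fitted, and what separates ΔMye Tat from floxed Tat can have been present before Tat was added.

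Macrophages use the amino acid arginine along competing routes. Inducible nitric oxide synthase (NOS2) turns arginine into nitric oxide and citrulline with the help of the cofactor tetrahydrobiopterin, and the citrulline can be rebuilt into arginine by the enzymes ASS1 and ASL. The arginases instead split arginine into urea and ornithine, from which ODC1 starts the synthesis of polyamines. In mouse macrophages, Nos2 is a classical gene of inflammatory activation and Arg1 one of alternative activation.

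Levels are given as TPM (transcript abundance), which are scaled for transcript length and library total, so that different genes can be compared within a library. No read counts were available, so the depth is unknown and the spread between libraries is the only error given. The tested genes were the 10451 that reached 1 TPM in 5 or more libraries, and they were compared with limma on log2(TPM + 0.1), a scale that understates the change of low genes. All 9 genes passed this filter, Nos2 through its Tat libraries only, since 5 of its 6 floxed PBS libraries were below 1 TPM. A gene that entered through 1 group only was thereby favoured to be higher there, and the counts below include such genes. TPM sum to a fixed total, and the deposited TPM moved the whole table between groups. The median log2 fold change of all tested genes was -0.65 for floxed Tat against floxed PBS and 0.22 for ΔMye Tat against floxed Tat. Scaling each library by its median ratio to a common reference shifted these medians by 0.62 and -0.21, to -0.03 and 0.01. Fold changes are therefore given on both scales, first on the deposited TPM, and all levels are deposited TPM unless called scaled.

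The labels were checked first. Ikbkb was 12.8 to 19.9 TPM in the ΔMye Tat libraries and 21.6 to 25.4 TPM in the floxed Tat libraries, a log2 fold change of -0.51 (adjusted p = 4.51e-05, limma; -0.72 after scaling), and these groups did not overlap. Of 8 macrophage markers, all 8 had a mean of at least 1 TPM in each group, with a summed level of 25800 to 26810 TPM in floxed PBS, 10310 to 10890 TPM in floxed Tat and 8019 to 8344 TPM in ΔMye Tat. Most of this sum was Lyz2, the gene into which LysM-Cre is knocked in, with means of 22380, 6993 and 4333 TPM. The other 7 markers summed to 3816 to 4181, 3421 to 3644 and 3727 to 3865 TPM, so that without Lyz2 ΔMye Tat was above floxed Tat on the deposited TPM. The median log2 fold change of the 8 markers between these 2 groups was 0.17 on the deposited TPM and -0.04 after scaling. The summed level of 8 neutrophil markers was 66.7 to 78.8, 68.4 to 80.6 and 91.5 to 109.6 TPM in the same order, most of it S100a8. Without S100a8 the other 7 summed to 16.8 to 20.6, 4.84 to 6.69 and 6.51 to 8.86 TPM. The lower sums in both Tat groups were mostly Mmp8, at 13.9 to 17.8, 1.96 to 2.81 and 2.83 to 4.58 TPM. Of 4 tested neutrophil markers, 1 was lower with Tat (Mmp8) and 1 higher (S100a8) at an adjusted p under 0.01 (limma), on either scale. Of all tested genes 67.6% were lower and 17% higher, or 38.1% and 37.1% after scaling. Ngp was listed at 0 in every library. The summed level of 8 T cell and innate lymphoid cell markers was 150.9 to 174.4, 147.2 to 162.5 and 157.2 to 172.5 TPM, most of it Il7r. The other 7 summed to 4.71 to 10.7, 5.30 to 6.13 and 11.7 to 13.1 TPM. The 8 markers of mesothelial cells and fibroblasts summed to 23.4 to 32.3, 22.4 to 27.3 and 13.5 to 17.6 TPM. The remaining lists (eosinophils and mast cells, B cells, NK cells) each summed to at most 44.7 TPM in any library. In such bulk samples fewer cells of a type and less RNA per cell cannot be told apart.

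Tat raised Nos2, the arginine carrier gene Slc7a2, the cofactor gene Gch1 and the mitochondrial arginase gene Arg2, and lowered the cytosolic arginase gene Arg1. With the study's thresholds (adjusted p under 0.01, fold over 3), 4 of the 9 genes were called higher in floxed Tat than in floxed PBS (Nos2, Slc7a2, Arg2 and Gch1), against 5.21% of all tested genes, and 1 was called lower (Arg1), against 19.4% of all tested genes. By the adjusted p alone, 7 of the 9 were higher, against 17% of all tested genes, and 2 were lower (Arg1 and Asl), against 67.6%. After median-ratio scaling the shares over all genes were more even, 8.51% higher and 9.76% lower with the fold threshold and 37.1% and 38.1% without it. The same 4 genes then stayed called higher, while Arg1 no longer passed the fold threshold. Nos2 entered the test through its Tat libraries, so the filter favoured its being called higher. Slc7a2, Arg2 and Gch1 were above 1 TPM in every library. The floxed Tat and floxed PBS libraries did not overlap for any of the 9 genes, as for 77.6% of all tested genes.

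**Figure D1:**
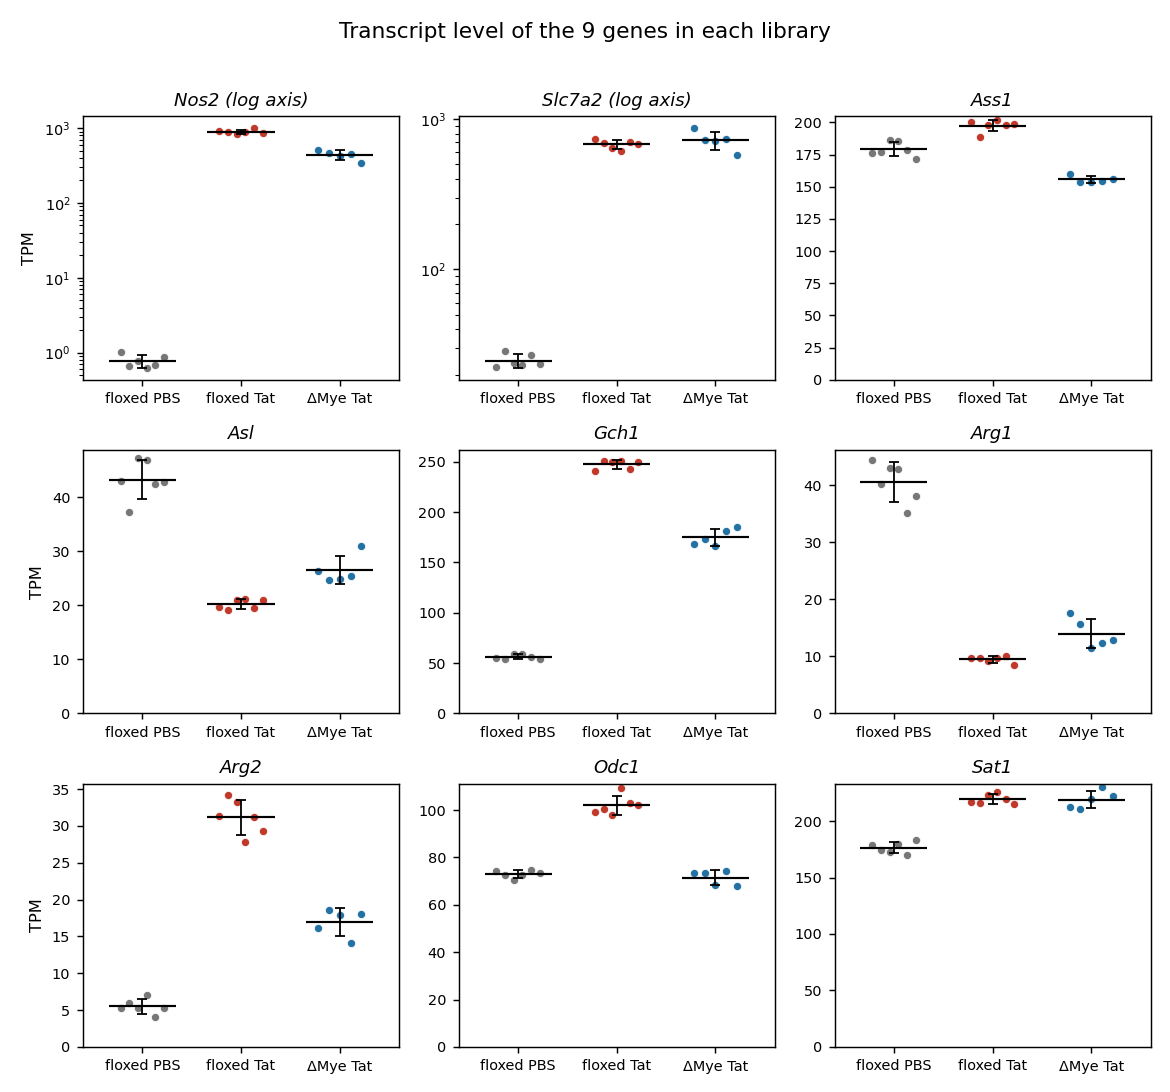
TPM of each gene in each library (points) of floxed PBS (n = 6), floxed Tat (n = 6) and ΔMye Tat (n = 5), with the mean (line) and SD (bar), on a log axis for Nos2 and Slc7a2 and from 0 for the others. The 3 groups stand apart for Nos2, Gch1, Arg1, Arg2, Ass1 and Asl, while ΔMye Tat overlaps floxed Tat for Slc7a2 and Sat1 and floxed PBS for Odc1.

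Nos2 (chromosome 11, 78920787 to 78960254 of GRCm38, plus strand) encodes the inducible nitric oxide synthase. Its level was 1.00, 0.65, 0.78, 0.63, 0.69 and 0.87 TPM in the floxed PBS libraries and 922.8, 882.5, 843.2, 884.2, 994.9 and 851.5 TPM in the floxed Tat libraries. In the ΔMye Tat libraries it was 517.8, 464.9, 429.5, 457.0 and 347.4 TPM. Every Tat library stood far above every PBS library, and every ΔMye Tat library below every floxed Tat library. The log2 fold change was 10.02 (SE 0.10, adjusted p = 1.83e-24, limma) for floxed Tat against floxed PBS and -1.03 (SE 0.10, adjusted p = 8.08e-08) for ΔMye Tat against floxed Tat. After scaling these were 10.61 and -1.24. The floxed PBS level was near the lower end of what was tested, so the first value moved with the pseudocount, from 8.99 at a pseudocount of 1 to 10.02 at 0.1. The mean of ΔMye Tat was 49.5% of that of floxed Tat, and still 575.2 times that of floxed PBS. Among the 9 genes Nos2 had the lowest mean in floxed PBS (0.77 ± 0.14 TPM, SD, n = 6) and the highest in floxed Tat (896.5 ± 55.8 TPM, n = 6).

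The other NOS genes, Nos1 (neuronal) and Nos3 (endothelial), had means of at most 0.11 TPM in each group. The genes of the soluble guanylate cyclase, the main receptor of nitric oxide in smooth muscle, were also near 0. The means of Gucy1a1, Gucy1a2 and Gucy1b1 were at most 0.22 TPM, and neither they nor the cGMP-dependent kinase genes Prkg1 and Prkg2 passed the filter. Of 10 tested genes for other NOS isoforms and proteins known to bind or limit NOS, 2 were higher with Tat by the adjusted p and 8 lower, against 17% and 67.6% of all tested genes, and after scaling 3 were higher, 5 lower and 2 neither, against 37.1% higher and 38.1% lower. The 2 were Hsp90ab1 and Hsp90aa1, chaperones that assist NOS, and Hsp90aa1 rose from 111.4 to 248.7 TPM (log2 fold change 1.16, adjusted p = 6.05e-16, limma; 1.79 after scaling). Calm2, 1 of 3 genes for calmodulin, fell from 547.6 to 157.8 TPM (log2 fold change -1.80, adjusted p = 1.68e-19, limma, or -1.16 after scaling). Nostrin, the gene of a binding partner of endothelial NOS, fell from 8.54 to 2.17 TPM (-1.93, adjusted p = 8.43e-12, limma, or -1.31 after scaling).

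Slc7a2 (chromosome 8, 40862396 to 40922308, plus strand) encodes CAT-2, a carrier that brings arginine into the cell. It was 22.3, 28.9, 24.0, 23.2, 26.9 and 23.4 TPM in floxed PBS, and 741.3, 693.9, 643.5, 611.1, 701.9 and 681.8 TPM in floxed Tat. In ΔMye Tat it was 866.75, 722.2, 710.5, 734.4 and 578.2 TPM. All Tat libraries of both genotypes were above all PBS libraries, and the ΔMye Tat libraries spanned the whole range of floxed Tat and beyond on either side. The log2 fold change with Tat was 4.77 (SE 0.08, adjusted p = 6.37e-21, limma), or 5.41 after scaling. Between ΔMye Tat and floxed Tat the log2 difference was 0.08 (95% confidence interval -0.09 to 0.25, adjusted p = 0.408), and it was -0.13 (-0.26 to -0.0026, adjusted p = 0.087) after scaling, so its direction depended on the scaling. Neither interval reaches the difference of Nos2 on the same scale, though the difference between these genes was not itself tested.

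No other tested carrier of arginine or ornithine was called higher with the fold threshold on either scale. Of 6 tested, 1 was higher by the adjusted p (Slc3a2, the heavy chain shared by several amino acid carriers, from 517.4 to 701.1 TPM, log2 fold change 0.44, or 1.07 after scaling), 4 were lower, against 67.6% of all tested genes, and 1 passed in neither direction (Slc7a1, from 19.8 to 19.5 TPM). After scaling Slc7a1 was higher too (0.61, adjusted p = 4.46e-06, limma), 3 were lower and 1 passed in neither direction. Of all tested genes 17% were higher on the deposited TPM, and 37.1% were higher and 38.1% lower after scaling. The mitochondrial carriers Slc25a13 (aspartate and glutamate) and Slc25a15 (ornithine) were the 2 past the fold threshold, with log2 fold changes of -1.82 (adjusted p = 2.70e-13, limma) and -1.74 (adjusted p = 4.81e-12). After scaling they were -1.20 and -1.13, and neither passed the fold threshold.

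Ass1 (chromosome 2, 31470207 to 31520672, plus strand) encodes argininosuccinate synthase, which starts the return of citrulline to arginine, and Asl (chromosome 5, 130011258 to 130029247, minus strand) encodes argininosuccinate lyase, which completes it. Ass1 was 171.9 to 186.2 TPM (median 177.8) in floxed PBS, 188.6 to 201.5 TPM (median 198.4) in floxed Tat and 154.0 to 159.7 TPM in ΔMye Tat. Asl was 37.2 to 47.4 TPM (median 42.9) in floxed PBS, 19.2 to 21.2 TPM (median 20.3) in floxed Tat, and 26.3, 24.8, 24.8, 25.4 and 30.96 TPM in ΔMye Tat. The 3 groups were apart for both genes, with floxed Tat highest for Ass1 and lowest for Asl. With Tat, Ass1 had a log2 fold change of 0.14 (SE 0.03, adjusted p = 4.68e-05, limma), or 0.77 after scaling. Asl had one of -1.09 (SE 0.06, adjusted p = 2.54e-12), or -0.46 after scaling. Between ΔMye Tat and floxed Tat, Ass1 was lower by 0.34 on the log2 scale (a fold change of -0.34, SE 0.03, adjusted p = 3.87e-09; -0.56 after scaling).

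Asl was higher in ΔMye Tat by 0.38 (SE 0.07, adjusted p = 6.70e-05, limma), but by 0.17 with an adjusted p of 0.103 after scaling, which does not pass. The ratio of the 2 genes within a library does not depend on the scaling. The log2 of Ass1 over Asl was 2.05 ± 0.10 (SD, n = 6) in floxed PBS, 3.29 ± 0.05 (n = 6) in floxed Tat and 2.56 ± 0.13 (n = 5) in ΔMye Tat, without overlap. For Ass1, 43.1% of the 31-base sequences of its transcripts are shared with other genes, so its level is uncertain to that extent. The largest count of matches was with Gm5424, which was not analysed here. Of the other enzymes of the urea cycle, Nags and Cps1 were listed at 0 in every group and Otc had a mean of at most 0.0057 TPM.

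Gch1 (chromosome 14, 47153895 to 47189413, minus strand) encodes GTP cyclohydrolase 1, the first enzyme of the synthesis of tetrahydrobiopterin. It was 53.8 to 59.3 TPM (median 55.3) in floxed PBS, 240.7 to 250.8 TPM (median 250.04) in floxed Tat, and 168.2, 173.8, 165.9, 181.2 and 185.8 TPM in ΔMye Tat. The groups were far apart, with ΔMye Tat between the others. The log2 fold change was 2.14 (SE 0.03, adjusted p = 3.28e-21, limma) with Tat and -0.50 (SE 0.04, adjusted p = 8.29e-10) for ΔMye Tat against floxed Tat. After scaling these were 2.77 and -0.71. The other tested enzymes of this pathway went the other way. All 4 (Pts, Spr, Qdpr and Pcbd2) were lower with Tat on both scales by the adjusted p, against 67.6% of all tested genes on the deposited TPM and 38.1% after scaling, with a median log2 fold change of -1.65, or -1.02 after scaling. Spr, the last enzyme of the synthesis, fell from 43.2 to 10.6 TPM (log2 fold change -2.02, adjusted p = 1.04e-14, limma; -1.39 after scaling), and Qdpr, which recycles the used cofactor, from 81.0 to 21.5 TPM (-1.91, adjusted p = 1.10e-17; -1.28 after scaling). In ΔMye Tat, Spr was 19.2 TPM and Qdpr 31.2 TPM, both above floxed Tat by the adjusted p on either scale.

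IKKβ acts through the transcription factor NF-κB, so the promoters of the genes were searched for its binding sequence and for 7 others. RefSeq's promoter table (GRCm38.p6) held 4 of the 9 genes, Ass1, Gch1, Odc1 and Sat1, and both strands were searched from 250 bases before to 50 bases after the start of each. All matches lay before the start, and different motifs did not overlap. The 250 bases before the start are shown for Gch1, the only 1 of the 4 with an NF-κB match, and for Sat1, which of the 4 had the smallest difference between ΔMye Tat and floxed Tat. Capitals mark the matches found on either strand, from left to right a TATA box, 2 GC boxes, a CCAAT box and an NF-κB site in Gch1 (chr14:47189414-47189663, minus strand) and 2 GC boxes in Sat1 (chrX:155216450-155216699, minus strand).
Gch1: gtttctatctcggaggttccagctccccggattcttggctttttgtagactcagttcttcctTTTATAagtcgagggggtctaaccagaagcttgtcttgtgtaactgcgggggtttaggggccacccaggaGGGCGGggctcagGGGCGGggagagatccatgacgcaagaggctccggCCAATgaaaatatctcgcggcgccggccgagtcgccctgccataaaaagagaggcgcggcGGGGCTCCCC
Sat1: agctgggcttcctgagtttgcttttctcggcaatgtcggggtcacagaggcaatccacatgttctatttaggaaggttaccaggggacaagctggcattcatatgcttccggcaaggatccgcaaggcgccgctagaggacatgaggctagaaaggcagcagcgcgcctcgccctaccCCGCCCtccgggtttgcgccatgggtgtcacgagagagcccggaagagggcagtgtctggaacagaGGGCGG

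The NF-κB match of Gch1, GGGGCTCCCC, began 10 bases before the start, and the motif was matched there on both strands. Of 32851 promoters searched over the same length, 8.46% held an NF-κB match. The GC box (GGGCGG) was found in 35.7% of them, the CCAAT box (CCAAT) in 37.4%, the TATA box (TATAAA) in 13.6% and the E-box (CACGTG) in 7.15%. The GAS element (TTCNNNGAA, 8.30%), the core of the ISRE (GAAANNGAA, 8.56%) and the AP-1 site (TGANTCA, 7.81%) had no match in the 4 genes. Ass1 held a GC box 63 bases and an E-box 36 bases before the start, and Odc1 held GC boxes at 238, 116, 88 and 15 bases before it. Neither held an NF-κB match. Ass1 and Odc1 were both lower in ΔMye Tat than in floxed Tat, and a link between matches and differences was not tested. Their log2 fold changes were -0.34 for Ass1 and -0.51 for Odc1, or -0.56 and -0.72 after scaling. A match describes letters in this window and not binding.

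**Figure D2:**
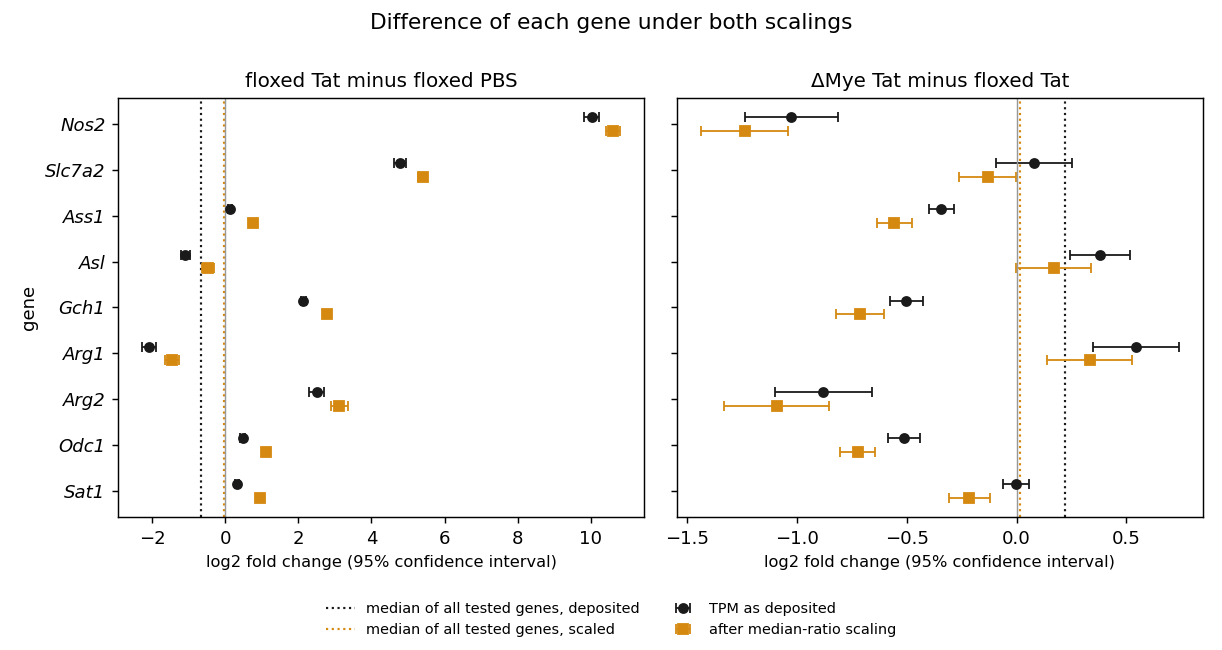
Log2 fold change of each gene with its 95% confidence interval on the deposited TPM (circles) and after median-ratio scaling (squares), for floxed Tat minus floxed PBS (left) and ΔMye Tat minus floxed Tat (right). Dotted lines mark the median of all tested genes on each scale, -0.65 and -0.03 on the left and 0.22 and 0.01 on the right.

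Arg1 (chromosome 10, 24915221 to 24927484, minus strand) encodes the cytosolic arginase and Arg2 (chromosome 12, 79130777 to 79156301, plus strand) the mitochondrial one. Arg1 was 44.4, 40.2, 42.9, 42.9, 35.1 and 38.1 TPM in floxed PBS, 9.65, 9.70, 9.11, 9.73, 10.02 and 8.50 TPM in floxed Tat, and 17.6, 15.6, 11.5, 12.3 and 12.9 TPM in ΔMye Tat. Every Tat library was below every PBS library, and every ΔMye Tat library above every floxed Tat library. The log2 fold change was -2.09 (SE 0.09, adjusted p = 2.02e-14, limma) with Tat and 0.54 (SE 0.09, adjusted p = 5.99e-05) for ΔMye Tat against floxed Tat. After scaling they were -1.46 (adjusted p = 9.60e-12) and 0.33 (adjusted p = 0.00615), and under quantile normalization the second was 0.30 and no longer passed (adjusted p = 0.0107).

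Arg2 went the other way. It was 5.26, 5.98, 5.25, 7.07, 4.11 and 5.24 TPM in floxed PBS, 31.3, 34.3, 33.2, 27.9, 31.3 and 29.3 TPM in floxed Tat, and 16.1, 18.6, 18.0, 14.1 and 18.0 TPM in ΔMye Tat. The 3 groups were apart, with ΔMye Tat in the middle. Its log2 fold change was 2.50 (SE 0.10, adjusted p = 8.96e-15, limma) with Tat and -0.88 (SE 0.11, adjusted p = 9.73e-07) for ΔMye Tat against floxed Tat, or 3.13 and -1.09 after scaling. Arg2 overlaps Vti1b on the opposite strand, and 23.6% of its 31-base transcript sequences are shared with other genes, with the largest count of matches in Vti1b. Vti1b itself was 75.5 to 83.0 TPM in floxed PBS, 48.5 to 55.6 TPM in floxed Tat and 62.2 to 80.2 TPM in ΔMye Tat. With Tat it was lower on the deposited TPM (log2 fold change -0.60, adjusted p = 1.30e-09, limma) and did not pass after scaling (0.03, adjusted p = 0.707).

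With Tat the sum of the arginase transcripts moved less than either gene, in a direction that depended on the scaling. Arg1 and Arg2 together were 46.1 ± 4.17 TPM (SD, n = 6) in floxed PBS, 40.6 ± 2.52 TPM (n = 6) in floxed Tat and 30.9 ± 3.18 TPM (n = 5) in ΔMye Tat. After scaling the sum was 36.0 ± 4.12, 49.1 ± 2.56 and 32.2 ± 3.31 in the same order, so that floxed Tat was then above floxed PBS. The share of Arg2 in this sum was 11.9% ± 1.47 in floxed PBS, 76.7% ± 1.604 in floxed Tat and 55.0% ± 4.98 in ΔMye Tat. The log2 ratio of Nos2 to Arg1 within a library was -5.73 ± 0.26 in floxed PBS, 6.57 ± 0.06 in floxed Tat and 4.99 ± 0.21 in ΔMye Tat. These ratios are descriptions with no test, and their groups did not overlap.

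**Figure D3:**
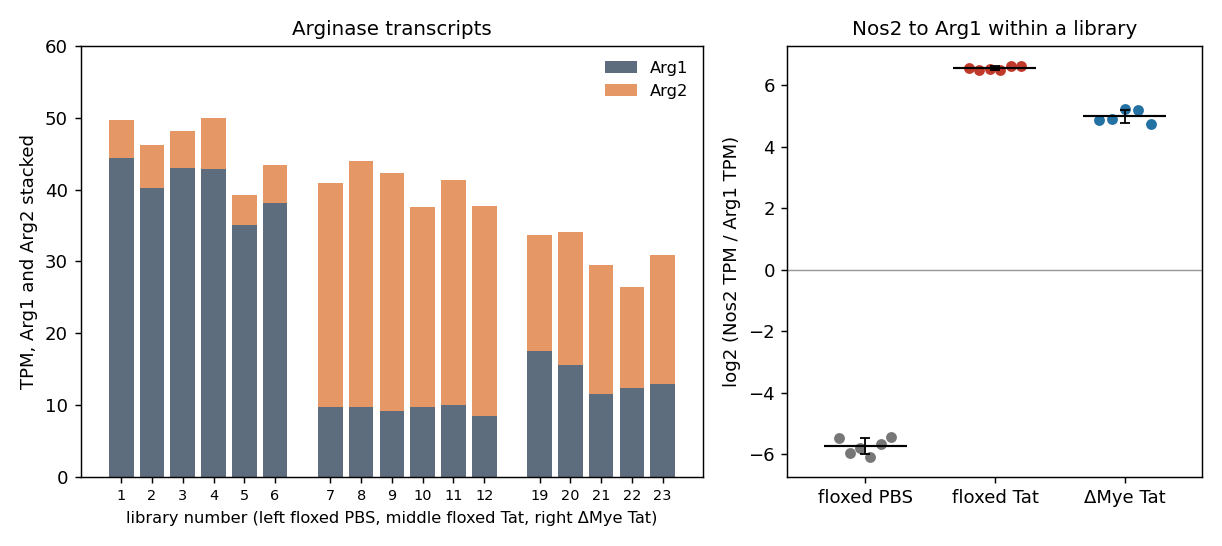
Left, TPM of Arg1 and Arg2 stacked for each library, numbered as in the labels. Right, log2 of Nos2 TPM over Arg1 TPM in each library with the mean and SD of each group, about -5.73 in floxed PBS (n = 6), 6.57 in floxed Tat (n = 6) and 4.99 in ΔMye Tat (n = 5).

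Downstream of ornithine, Odc1 (chromosome 12, 17544794 to 17551505, plus strand) encodes ornithine decarboxylase, which opens polyamine synthesis, and Sat1 (chromosome X, 155213132 to 155216449, minus strand) encodes the acetyltransferase that opens polyamine breakdown. Odc1 was 70.5 to 74.7 TPM (median 73.1) in floxed PBS, 98.0 to 109.1 TPM (median 101.2) in floxed Tat, and 73.4, 73.6, 68.3, 74.2 and 68.1 TPM in ΔMye Tat. The floxed Tat libraries stood above both other groups, which overlapped. Its log2 fold change was 0.48 (SE 0.03, adjusted p = 4.95e-11, limma) with Tat and -0.51 (SE 0.03, adjusted p = 4.67e-10) for ΔMye Tat against floxed Tat, or 1.11 and -0.72 after scaling. ΔMye Tat differed from floxed PBS by -0.03 (95% confidence interval -0.10 to 0.04, adjusted p = 0.414), but by 0.39 (0.31 to 0.47, adjusted p = 2.98e-08) after scaling, so whether Odc1 was back at the PBS level depended on the scaling. Of its 31-base transcript sequences, 31.3% are shared with other genes. The largest count of matches was with Gm7993, which was not analysed here.

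Sat1 was 169.7 to 183.2 TPM (median 176.5) in floxed PBS, 215.4 to 225.4 TPM (median 218.3) in floxed Tat, and 212.6, 210.9, 219.9, 230.2 and 222.0 TPM in ΔMye Tat. Both Tat groups were above floxed PBS and overlapped each other. The log2 fold change with Tat was 0.31 (SE 0.03, adjusted p = 1.59e-09, limma), or 0.95 after scaling. Between ΔMye Tat and floxed Tat the log2 difference was -0.0025 (95% confidence interval -0.06 to 0.06, adjusted p = 0.945) on the deposited TPM. After scaling it was -0.22 (-0.31 to -0.12, adjusted p = 0.000604), which passes. The log2 of Odc1 over Sat1 within a library, free of the scaling, was -1.27 ± 0.05 (SD, n = 6) in floxed PBS, -1.11 ± 0.05 (n = 6) in floxed Tat and -1.62 ± 0.09 (n = 5) in ΔMye Tat. The floxed PBS (-1.319 to -1.183) and floxed Tat (-1.189 to -1.046) libraries overlapped, and those of ΔMye Tat (-1.706 to -1.518) were below both.

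Of 11 other polyamine genes tested, 10 were lower and 1 higher with Tat by the adjusted p, against 67.6% lower and 17% higher of all tested genes. After scaling 6 were lower, 1 was higher and 4 passed in neither direction, against 38.1% and 37.1% of all tested genes. The gene that rose was Smox, the spermine oxidase, from 18.7 ± 1.43 to 47.3 ± 1.55 TPM (n = 6 and 6; log2 fold change 1.34, adjusted p = 3.41e-14, limma; 1.97 after scaling). It was 25.7 TPM in ΔMye Tat, lower than in floxed Tat by 0.88 on the log2 scale (a fold change of -0.88, adjusted p = 6.51e-10, limma; -1.10 after scaling). Atp13a2, a lysosomal polyamine exporter, fell from 87.6 to 5.08 TPM (log2 fold change -4.09, adjusted p = 1.25e-19; -3.47 after scaling). Paox, the acetylpolyamine oxidase, fell from 11.5 to 1.06 TPM (-3.37, adjusted p = 2.40e-11; -2.77 after scaling), and Amd1, which makes the aminopropyl donor, from 34.4 to 9.08 TPM (-1.91, adjusted p = 1.46e-16; -1.29 after scaling).

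The genes that carry ornithine towards proline, and those of creatine, were lower with Tat without exception among those tested, 9 of 9 by the adjusted p on the deposited TPM, against 67.6% of all tested genes, and 7 of 9 after scaling, against 38.1%. Those past the fold threshold were Gamt (5.17 to 0.43 TPM, log2 fold change -3.42, adjusted p = 8.45e-10, limma; -2.86 after scaling) and Ckb (24.9 to 3.45 TPM, -2.82, adjusted p = 5.28e-17; -2.20 after scaling), which make creatine and phosphorylate it, Prodh (3.62 to 0.66 TPM, -2.30, adjusted p = 1.40e-08; -1.71 after scaling), the proline dehydrogenase, and Pycrl (15.6 to 3.90 TPM, -1.98, adjusted p = 5.95e-13; -1.36 after scaling), a reductase that makes proline. The first 3 remained past the fold threshold after scaling. Gamt, Prodh and the reductase gene Pycr1 passed the filter only with their floxed PBS libraries, where they were highest. In floxed Tat, Gamt (0.19 to 0.68 TPM) and Prodh (0.40 to 0.96 TPM) were below 1 TPM in every library. The filter thus favoured a fall for these genes, and the count of 9 of 9 is not independent of it. Of the 4 genes of eIF5A, the translation factor that carries a spermidine-derived hypusine, 1 was higher (Dhps, the deoxyhypusine synthase, from 33.8 to 48.4 TPM, log2 fold change 0.52, or 1.15 after scaling) and 3 were lower, against 17% and 67.6% of all tested genes. After scaling 2 were higher and 1 was lower, against 37.1% and 38.1% of all tested genes. Dohh, the last enzyme of the pathway, then no longer passed, and Eif5a turned from -0.33 to 0.30 (adjusted p = 1.06e-09 and 2.66e-07, limma). Eif5a2 was the 1 past the fold threshold, from 2.68 to 0.76 TPM (log2 fold change -1.72, adjusted p = 6.74e-10), and it was -1.13 after scaling.

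Genes known to rise with interleukin 4 in mouse macrophages did not move as a block with Arg1. Apart from Arg1, 14 were tested. By the adjusted p Tat raised 6 and lowered 7, against 17% and 67.6% of all tested genes. After scaling it raised 8 and lowered 5, against 37.1% and 38.1%. Past the fold threshold, the chemokine genes Ccl17 (0.33 to 10.5 TPM, adjusted p = 1.48e-10, limma) and Ccl22 (5.80 to 120.8 TPM, log2 fold change 4.39, adjusted p = 7.82e-18; 5.02 after scaling) rose. Ccl17 was at 0 to 0.51 TPM in floxed PBS and passed the filter through its Tat libraries only, so no fold is given for it. Pparg, a nuclear receptor gene, fell from 26.0 to 0.95 TPM (-4.76, adjusted p = 2.10e-13; -4.16 after scaling), Clec10a, a lectin gene, from 17.8 to 3.09 TPM (-2.51, adjusted p = 3.18e-09; -1.89 after scaling) and Klf4, a transcription factor gene, from 28.8 to 6.96 TPM (-2.04, adjusted p = 1.38e-15; -1.41 after scaling). After scaling Klf4 no longer passed the fold threshold, while Il4ra, the gene of the interleukin 4 receptor chain, did (7.88 to 22.03 TPM, 1.46, or 2.08 after scaling). Pparg was the 1 gene of the arginine, polyamine and alternative activation lists called higher in ΔMye Tat than in floxed Tat, at 3.93 TPM (log2 fold change 2.06, adjusted p = 8.59e-07; 1.88 after scaling).

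**Figure D4:**
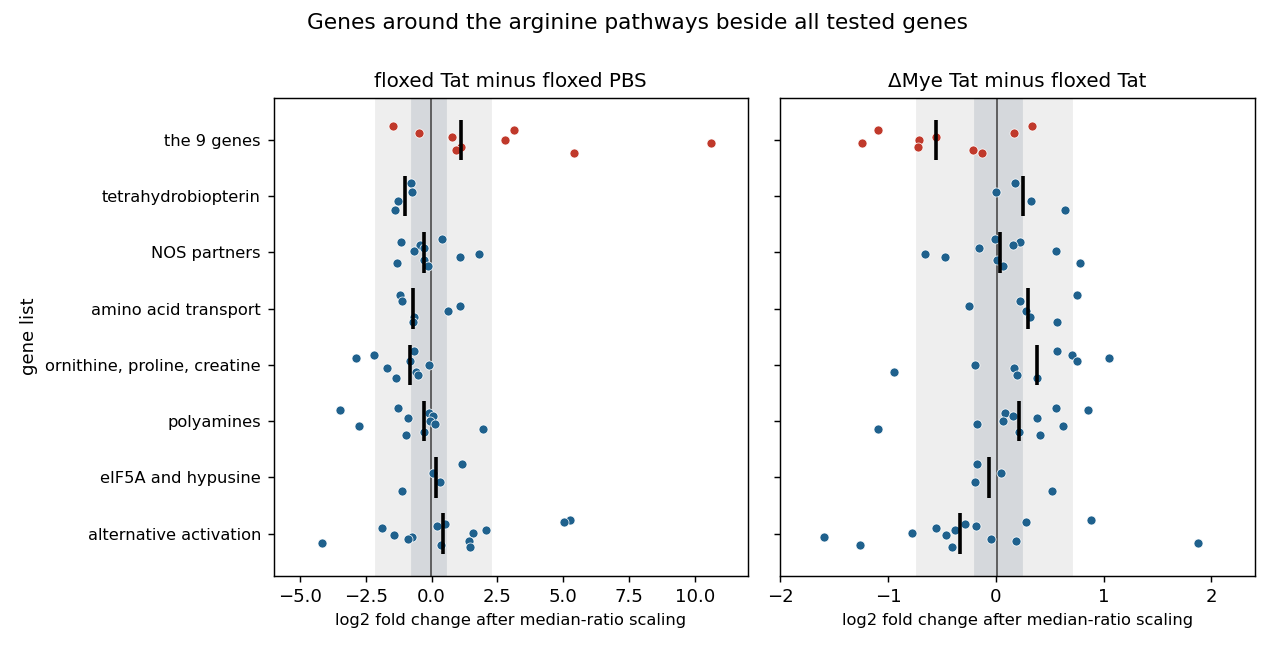
Log2 fold change after median-ratio scaling of each tested gene (points) by list, with the list's median (black bar), for floxed Tat minus floxed PBS (left) and ΔMye Tat minus floxed Tat (right). Grey bands hold the middle 50% and 90% of the 10451 tested genes. The 9 genes (top, median 1.11 and -0.56) are 4 above and 5 inside the 90% band on the left, and 2 below (Nos2 and Arg2) and 7 inside it on the right, and those of the tetrahydrobiopterin list other than Gch1 lie below 0 on the left.

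Among Tat-treated PMs, those with IKKβ deleted had less Nos2, Arg2, Gch1, Odc1 and Ass1 than floxed PMs on both scales, with folds below 3. None of the 9 was called in ΔMye Tat against floxed Tat in either direction with limma and the fold threshold, while 0.440% of all tested genes were called higher and 0.316% lower. By the adjusted p alone, 5 of the 9 were lower (Nos2, Arg2, Gch1, Odc1 and Ass1), against 8.87% of all tested genes, and 2 were higher (Arg1 and Asl), against 38.8%. At an unadjusted p under 0.05, 7 of the 9 passed with limma and with an exact Wilcoxon test, against 63.9% and 54.2% of all tested genes. After scaling, 6 were lower, 1 was higher (Arg1), and 16.4% of all genes were higher and 18.8% lower. The libraries did not overlap for 7 of the 9, as for 36.6% of all tested genes. Between the same libraries the T cell genes Cd3g (0.52 to 1.98 TPM) and Cd8a (0.54 to 1.77 TPM) were called higher in ΔMye Tat, with log2 fold changes of 1.86 and 1.59 (adjusted p = 6.03e-05 and 1.35e-05, limma; 1.69 and 1.42 after scaling, where 1 of the 2 passed the fold threshold). Of 6 tested T cell and innate lymphoid cell markers 4 were higher by the adjusted p on either scale, against 38.8% of all tested genes, or 16.4% after scaling. Of these, Cd8a, Cd3d and Cd3e passed the filter only with their ΔMye Tat libraries, and none reached 1 TPM in any floxed Tat library. The filter thus favoured a higher level in ΔMye Tat for them. Il7r was lower after scaling. Of 5 tested mesothelial and fibroblast markers 2 were lower, against 8.87% of all tested genes, or 4 after scaling, against 18.8%. The part of these cells in the differences of the 9 genes was not tested.

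Set against floxed PBS, the ΔMye Tat libraries had 4 of the 9 genes called higher (Nos2, Slc7a2, Gch1 and Arg2), against 4.38% of all tested genes, and had none called lower with limma, against 11.1%. By the adjusted p alone, 5 were higher, against 17.5%, and 3 lower (Arg1, Asl and Ass1), against 58.8%. Here too the filter favoured a higher level of Nos2, which entered through its Tat libraries. The libraries did not overlap for 8 of the 9, as for 67.7% of all tested genes. The log2 fold changes were 8.996 for Nos2, 4.85 for Slc7a2, 1.64 for Gch1 and 1.62 for Arg2, and -1.55 for Arg1 (9.37, 5.27, 2.06, 2.03 and -1.13 after scaling). The last 2 lie near the fold threshold of 3, and without floxed PBS library 5 Arg2 was no longer called (1.54) and Arg1 was (-1.59). Arg1 was also called without ΔMye Tat library 19 or library 20. Ass1 was lower than in floxed PBS by 0.20 on the log2 scale (a fold change of -0.20) and higher by 0.22 after scaling. This comparison and the others share libraries, and it does not separate genotype from Tat.

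Within a group, the levels of the 9 genes could be ranked, since TPM are per length. In floxed PBS, Ass1 (179.2 ± 5.63 TPM) and Sat1 (176.5 ± 4.98 TPM) were highest and overlapped, followed by Odc1, Gch1 and then Asl and Arg1, which overlapped, Slc7a2, Arg2 and Nos2. In floxed Tat, Nos2 was first, above Slc7a2 (678.9 ± 45.9 TPM), Gch1 (247.5 ± 4.47 TPM), Sat1, Ass1, Odc1, Arg2, Asl and Arg1 (9.45 ± 0.55 TPM), with no overlap between neighbours. In ΔMye Tat, Slc7a2 (722.4 ± 102.4 TPM) was above Nos2 (443.3 ± 62.5 TPM) without overlap, and Arg2 (16.96 ± 1.84 TPM) and Arg1 (14.0 ± 2.52 TPM) were last and overlapped. The coefficient of variation within ΔMye Tat was 14.1% for Nos2, 14.2% for Slc7a2 and 18.0% for Arg1, against 6.23%, 6.75% and 5.85% in floxed Tat.

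The genes whose log2(TPM + 0.1) was most like that of Nos2 over the 17 libraries were Hcar2, Ptgs2 and Gbp2 (Pearson r = 0.999 for each). For Arg1 they were Naxd, Qdpr and Sqle (r = 0.993, 0.991 and 0.990), of which Qdpr also stands in the tetrahydrobiopterin list. For Odc1 they were Ppp2r1a, Ehd4 and Aldh1a2 (r = 0.978, 0.978 and 0.977). Ehd4 was 43.7, 78.5 and 40.6 TPM and Aldh1a2 5.19, 15.2 and 5.48 TPM in floxed PBS, floxed Tat and ΔMye Tat. These values describe profiles that all libraries share through 3 groups, and carry no test.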

How the data were processed

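The RNA-Seq values are TPM by gene symbol, which the authors made with Salmon and the Ensembl annotation of GRCm38 before they deposited them; they carry no counts, no depth and no stated normalization between libraries. The authors' own comparison (edgeR, with TMM) needs counts and was not repeated. Groups came from the labels. A further allele that all groups share is not reported here. The study calls the libraries biological replicates, and which libraries share a mouse is not given in the sources used here, so p-values measure the spread between libraries. Tests used limma 3.58.1 in R 4.3.3 (lmFit and eBayes with trend, 1 fit of 3 groups, 14 residual degrees of freedom) on log2(TPM + 0.1), with Benjamini-Hochberg adjustment over 10451 genes. Calls needed an adjusted p under 0.01 together with a fold change above 3. The fit was tested on simulated data. Median-ratio scaling divided each library by the median, over genes above 0 in every library, of its ratio to the geometric mean. Coordinates and shared 31-base sequences came from GENCODE M21. The 9 genes, the lists and the tests were chosen with earlier results of these data known. Genes of the lists were named when called with Tat or between genotypes. Hsp90aa1, Hsp90ab1, Slc3a2, Slc7a1, Dhps, Smox, Spr, Pts, Pcbd2, Dohh, Eif5a, Il4ra, Pycr1, Cd3d, Cd3e, the leading marker genes and genes near 0 were added after their values were seen. Marker sums without their leading gene were added likewise. The most alike genes were the 3 with the highest Pearson r and a mean of at least 10 TPM in a group. The alternatives tried were a pseudocount of 0.5 or 1, a filter at 5 TPM or none, 2 scalings, an exact Wilcoxon test, fits of 2 groups, robust weights and each library left out. Tables and figures were made in Python 3.11.15 with pandas 2.3.3, numpy 2.4.6 and matplotlib 3.10.9.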

Additional observations from a re-analysis of the deposited data

Results flagged for a closer look

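Of 39 sets of libraries looked at (each of the 9 genes and 4 ratios within each of the 3 groups), 4 had 1 library far from the others by Dixon's test at the 95% level, which flags about 1 in 20 by chance. Asl enters 3 of the 4. In ΔMye Tat, library 23 had an Asl level of 30.96 TPM, above the other 4 at 24.8 to 26.3 TPM, and its log2 ratio of Ass1 to Asl was the lowest at 2.34. Without it, the log2 fold change of Asl between ΔMye Tat and floxed Tat was 0.32 (adjusted p = 0.000139, limma) in place of 0.38. In floxed PBS, library 2 had the highest log2 ratio of Ass1 to Asl, 2.25. In floxed Tat, library 8 had the lowest Ass1 level, 188.6 TPM, still above the highest of floxed PBS, 186.2 TPM.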

How the results depend on the processing

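The 27 log2 fold changes of the 9 genes were recomputed under 26 alternatives, and of 702 values 681 kept their direction and their side of an adjusted p of 0.01. Of the rest, 7 of the ΔMye Tat against floxed Tat values missed the threshold under the exact Wilcoxon test, whose smallest adjusted p there is 0.0118, so it calls 0 genes of any kind at 0.01 or with the fold threshold in either direction. Directions reversed after median-ratio scaling for Slc7a2 (-0.13) in ΔMye Tat against floxed Tat and for Ass1 (0.22) and Odc1 (0.39) in ΔMye Tat against floxed PBS. Under quantile normalization they reversed for Sat1 (0.025) and Odc1 (0.051) in the same 2 comparisons, where Sat1 ranged from -0.020 to 0.011 with 1 library left out. Asl lost its call between genotypes under both scalings, Arg1 under quantile normalization, and Ass1 with Tat under quantile normalization (0.07, adjusted p = 0.0309).

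Both scalings and a pseudocount of 1 or a filter at 5 TPM moved counts. Of the 9 genes, 0 were called lower with Tat under either scaling in place of 1, and by the adjusted p alone 1 (median-ratio) or 0 (quantile) were higher in ΔMye Tat than floxed Tat in place of 2. Called lower than floxed PBS in ΔMye Tat were 0 to 1 genes with 1 library left out. Over all genes, those called higher with Tat numbered 889 (median-ratio) and 832 (quantile) in place of 545, and those lower 1020 and 881, with 1197 at a pseudocount of 1 and 1281 at 5 TPM, in place of 2031. By the adjusted p alone they were 3880 and 3580 higher and 3985 and 4257 lower. For ΔMye Tat against floxed Tat, genes called higher numbered 27 (median-ratio), 26 (quantile), 15 (pseudocount 0.5), 10 (pseudocount 1) and 18 (5 TPM) in place of 46, and those called lower 63 (median-ratio) and 20 (pseudocount 1) in place of 33. By the adjusted p alone they were 1714 and 1899 higher and 1969 and 1592 lower. For ΔMye Tat against floxed PBS, genes called lower numbered 655 (median-ratio), 536 (quantile), 601 (pseudocount 1) and 689 (5 TPM) in place of 1165, and by the adjusted p alone 3557 and 3240 were higher and 3517 and 3801 lower. Which scale is nearer to the cells' RNA content was not tested. No paired analysis was possible because the groups share no replicate numbers. Depth is unknown, so no limit from counting can be given.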

Other observations

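The ΔMye Tat libraries differed among themselves in Ikbkb, and some of the 9 genes had their extremes in the same libraries. Library 23 had the lowest Ikbkb level (12.8 TPM), the lowest Nos2 (347.4 TPM), the lowest Slc7a2 (578.2 TPM) and the highest Asl (30.96 TPM) and Gch1 (185.8 TPM) of the 5. Library 19 had the highest Ikbkb level (19.9 TPM), the highest Nos2 (517.8 TPM), the highest Slc7a2 (866.75 TPM) and the highest Arg1 (17.6 TPM). With 5 libraries no correlation was computed. Without library 23 the log2 fold change between ΔMye Tat and floxed Tat was -0.94 for Nos2 and 0.16 for Slc7a2 (adjusted p = 1.68e-07 and 0.0673, limma).

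Among the genes known to rise with interleukin 4, Retnla was 60.4 ± 7.55 TPM in floxed PBS, 49.3 ± 4.37 TPM in floxed Tat and 23.8 ± 2.52 TPM in ΔMye Tat (SD, n = 6, 6 and 5), so that it was lowest where Arg1 was intermediate. Its log2 difference between ΔMye Tat and floxed Tat was -1.05 (adjusted p = 9.01e-09, limma), or -1.26 after scaling. These genes were picked after their values were seen.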
